A study of Mus musculus with 40 samples.

Results

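A set of 9 genes of hyaluronan metabolism was followed across mouse cardiac fibroblasts with and without deletion of TAK1, each under 5 ligand conditions. They are the synthases Has1, Has2 and Has3, the breakdown genes Hyal1, Hyal2 and Cemip, and the binding genes Tnfaip6, Cd44 and Vcan. The genes were chosen by name and found through their Ensembl identifiers, and all 9 were among the 25210 genes tested of 55414 identifiers in the count table. Fibroblasts came from hearts of TAK1fl/fl mice on the C57BL/6J background, in which exon 2 of Map3k7, the gene for TAK1, is flanked by loxP sites. At passage 1 they received an adenovirus for LacZ (control) or for the recombinase iCre under the CMV promoter, so that every group carried the floxed alleles and a virus. After 48 h with the virus and 48 h of rest, serum-starved cells were given no ligand (CTRL), bFGF at 20 ng/ml, TGFβ at 10 ng/ml, IL-1β at 15 ng/ml or TNFα at 10 ng/ml for 24 h. With 4 replicates in each of the 10 groups there were 40 libraries. The paper describes the replicates as male. Mouse age was not given in the labels.

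Hyaluronan is a long unsulfated sugar chain that hyaluronan synthases make at the plasma membrane and extrude into the matrix. It is cut by hyaluronidases and by the CEMIP protein, bound at the cell surface by CD44, and held in the matrix by partners such as versican, the product of Vcan, and TSG-6, the product of Tnfaip6. In the heart it is a known part of the provisional matrix that fibroblasts lay down after injury.

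Total counts per library lay between 25360947 and 66160732, with a median of 36183962. Levels below are CPM, read counts scaled by TMM library size, with the SD over 4 libraries. Levels of cell-type markers and their sums, here and further below, are instead CPM on raw library size, without TMM. The summed level of 10 fibroblast markers was between 16200 and 61000 CPM in every library. Markers of other cells were lower, with 13.9 to 161 CPM for 6 leukocyte genes, 3.23 to 28.9 CPM for 4 endothelial genes and 63.3 to 1130 CPM for 4 mural genes. The sum of 4 cardiomyocyte genes was 16.7 to 115 CPM in LacZ CTRL and 7.62 to 48 CPM in iCre CTRL, nearly all of it Tnnt2, at 52.7 ± 43.6 and 30.8 ± 19.2 CPM, while Myh6 and Nppa were at 0 in every LacZ CTRL library. The median of this sum was lower with each ligand than in CTRL, and its range was 0.303 to 1.66 CPM with IL-1β, 0.964 to 6.41 CPM with TNFα, 2.36 to 11.5 CPM with TGFβ and 1.14 to 30.3 CPM with bFGF in LacZ fibroblasts. The endothelial sum in LacZ fibroblasts was 26.6 to 28.9 CPM in CTRL and at most 17.5 CPM with any ligand. It was mostly Tek, at 21.8 ± 5.47 CPM in CTRL, while Cdh5 was at 1.74 ± 1.66 CPM in CTRL and 3.79 ± 2.93 CPM with bFGF, and Pecam1 at 0.882 CPM in CTRL, 0.928 CPM with bFGF and 0.894 CPM with IL-1β. The sum of 5 mesothelial markers in LacZ fibroblasts was 5.77 to 7.97 CPM in CTRL and at most 5.48 CPM with any ligand. In iCre fibroblasts the median of this mesothelial sum was also lower with each ligand than in CTRL, but every ligand group overlapped CTRL. The lowest iCre CTRL library was at 4.11 CPM, and the highest iCre library with TGFβ at 9.24 CPM. These sums moved with the comparisons of ligands with CTRL, and their part in those results was not tested. Between the viruses, the fibroblast sum did not overlap with TNFα, at 16200 to 24400 CPM in iCre and 26400 to 33400 CPM in LacZ, nor with IL-1β, at 24000 to 35400 and 37100 to 61000 CPM. Most of this sum came from collagen genes. With TNFα the markers Vim and Thy1 were higher in iCre without overlap, at 5010 ± 626 against 2810 ± 443 CPM and 778 ± 81.3 against 367 ± 75.9 CPM. Pdgfra and Postn, which are not collagen genes, were lower in iCre without overlap, at 885 to 1590 against 1600 to 2590 CPM and 16.9 to 316 against 329 to 612 CPM. Dcn and Tcf21 were lower in mean with overlap, at 1310 against 1840 CPM and 15.4 against 48.7 CPM. The sum of 3 Schwann cell markers was also lower in iCre, at 1.06 to 1.62 against 2.57 to 3.63 CPM with TNFα and 1.56 to 2.38 against 3.19 to 4.75 CPM with IL-1β. In CTRL the endothelial sum was lower in iCre, at 11.2 to 19.5 CPM. The part of these differences in the comparisons of iCre with LacZ was not tested. Fewer cells of a kind and less RNA per cell cannot be told apart in these bulk samples. Map3k7, counted over all exons and thus also from the recombined allele, was at 153 ± 6.51 CPM in LacZ CTRL and 127 ± 4.27 CPM in iCre CTRL, and the 4 iCre libraries lay below the 4 LacZ libraries in each of the 5 conditions.

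The quasi-likelihood test of edgeR was applied to pairs of groups, adjusted over all genes at a threshold of 0.05. Libraries with the same replicate number varied together, and the result of a fit with the replicate number as a block is given where it changed a call. The blocked test made more false calls than its threshold allows in simulated data. A blocked call is therefore also given with robust shrinkage of the spread, an alternative chosen after seeing the data, where that ended it. Log2 CPM rose with GC content by 0.197 to 0.339 per 10% GC in 12 libraries, those of iCre fibroblasts given TNFα, TGFβ or IL-1β, against −0.248 to 0.003 in the other 28 libraries. Values with a GC correction and the block are therefore given for iCre against LacZ and for ligands in iCre fibroblasts where they change a call or move a called value by over 1.5 times, and GC correction alone is given where it ends a call. All comparisons of a ligand with CTRL in the same virus share the same 4 CTRL libraries. On raw library size in place of TMM, the median log2 fold change of all genes with TGFβ moved from −0.17 to −0.57 in LacZ and from −0.11 to −0.55 in iCre fibroblasts, and calls that ended there are named. Over all genes TGFβ then gave 2225 higher and 8451 lower calls in LacZ fibroblasts, against 4421 and 4876, and 2276 and 8182 in iCre fibroblasts, against 4694 and 4744.

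**Figure D1:**
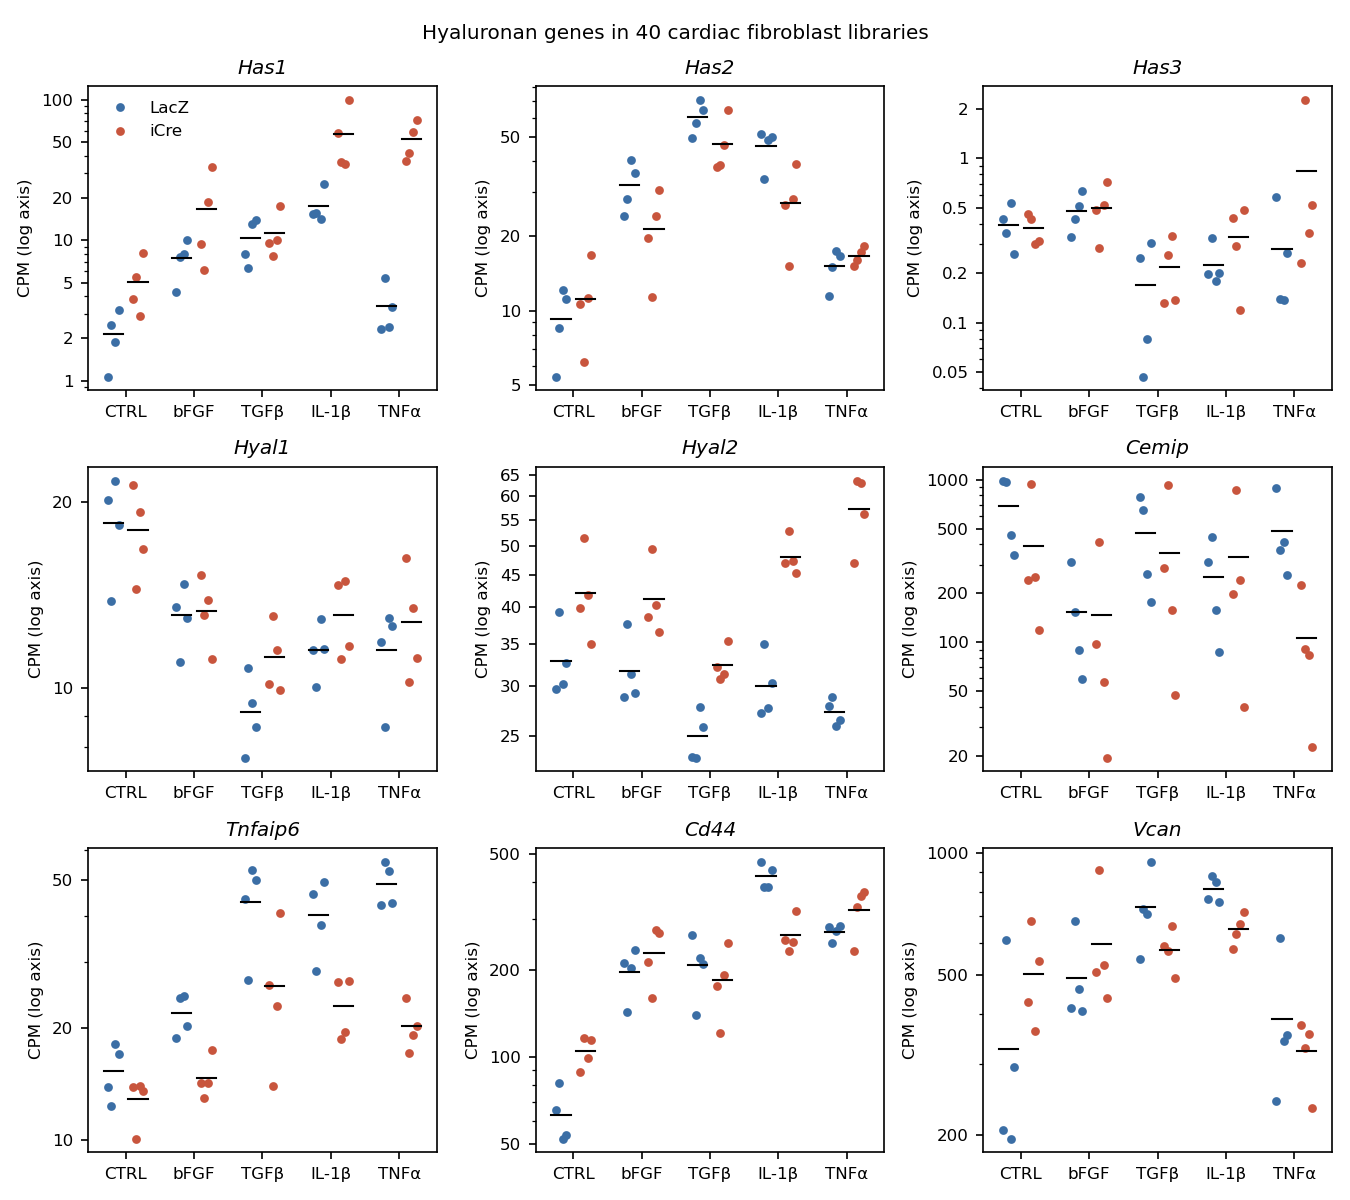
CPM of each of the 9 genes (log axis) in the 40 libraries, by ligand on the horizontal axis; points are libraries (blue LacZ, red iCre) and lines are means of 4. Has1 with TNFα lies between 2.34 and 5.42 CPM in LacZ and between 36.4 and 72.1 CPM in iCre fibroblasts.

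The effect of TNFα differed between LacZ and iCre fibroblasts past the threshold for 3 genes, Has1, Hyal2 and Tnfaip6. With GC correction alone the call of Tnfaip6 was lost. Sequences at their RefSeq starts are shown because these were the genes on which the results of TNFα and TAK1 deletion turn. The sequences come from RefSeq windows of 300 bases (build GRCm38.p6), which were found for 7 of the 9 genes, and each is printed 5′ to 3′ on the gene's strand up to the first base in the window of a GENCODE M21 exon of the gene. The sequences of Has1 and Tnfaip6 end at the annotated gene start. That of Hyal2 lies inside the annotated gene, which starts at 107567945, between exons, and is therefore not upstream of that start. Capitals mark matches on either strand to the κB motif or to the AP-1 motif TGANTCA.

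Has1, chr17:17855206-17855438, minus strand: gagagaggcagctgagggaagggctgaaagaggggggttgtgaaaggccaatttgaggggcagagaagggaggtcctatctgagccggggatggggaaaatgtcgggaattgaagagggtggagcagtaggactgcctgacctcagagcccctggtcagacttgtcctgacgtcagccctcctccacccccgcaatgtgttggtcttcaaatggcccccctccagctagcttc
Hyal2, chr9:107568913-107568982, plus strand: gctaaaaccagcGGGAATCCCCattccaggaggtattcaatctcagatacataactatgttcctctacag
Tnfaip6, chr2:52037863-52038008, plus strand: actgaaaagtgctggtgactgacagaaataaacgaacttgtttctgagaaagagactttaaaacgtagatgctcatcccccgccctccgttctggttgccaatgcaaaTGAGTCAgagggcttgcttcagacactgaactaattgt

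The Hyal2 sequence held a κB match and the Tnfaip6 sequence an AP-1 match, and the Has1 sequence held neither. Over the whole windows, the κB motif was found in 8.46% and TGANTCA in 7.81% of 32851 RefSeq windows of the same length. The windows of Hyal1, Cemip, Cd44 and Vcan held no match to either motif. A match describes letters and not a bound site.

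In LacZ fibroblasts, which keep TAK1, Has1, Has2, Cd44 and Tnfaip6 rose with bFGF, TGFβ and IL-1β, and Cd44 and Tnfaip6 also with TNFα. None of Hyal1, Hyal2 and Cemip rose past the threshold with any of the 4 ligands. Past the threshold with bFGF were 5 members, of which 4 were higher (11.6% of all genes called). With TGFβ 7 passed, of which 5 were higher (36.9%), and with IL-1β 6 passed, of which 5 were higher (20.7%). With TNFα 3 passed, of which 2 were higher (21.3%). The median log2 fold change of the 9 genes was 0.53 for bFGF, 1.19 for TGFβ, 1.34 for IL-1β and 0.26 for TNFα, beside −0.03, −0.17, −0.10 and −0.08 over all genes. Over the 4 ligands 16 member values were higher and 5 lower, and 14 and 9 on raw library size. With the block, 7, 8, 7 and 8 members passed (27.3%, 42.0%, 33.5% and 35.5% of all genes).

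Has2 (chromosome 15, 56665627 to 56694539), the main synthase of many mesenchymal cells, was at 5.43, 8.54, 12.1 and 11.1 CPM in the 4 LacZ CTRL libraries. With TGFβ it was at 49.6, 57.0, 70.9 and 64.7 CPM, a log2 fold change of 2.72 (SE 0.23, adjusted p = 1.42e-05). All TGFβ libraries lay above all CTRL libraries. Has2 also rose with IL-1β, to 46.1 ± 8.25 CPM (log2 fold change 2.32, SE 0.24, adjusted p = 0.000168), and with bFGF, to 32.2 ± 7.37 CPM (1.81, SE 0.25, adjusted p = 0.00259). With TNFα it was at 15.1 ± 2.62 CPM against 9.29 ± 2.98 CPM, and the groups overlapped (log2 fold change 0.70, SE 0.24, adjusted p = 0.0617, 9.33e-06 with the block). The opposite-strand gene Has2os overlaps Has2 and was between 0.784 and 1.71 CPM in the group means; the strand setting of the counting is not given in the sources used here, so reads of the pair cannot be told apart.

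Has1 (chromosome 17, 17843323 to 17855205), a synthase that is low in resting fibroblasts, was at 1.07, 2.48, 1.88 and 3.17 CPM in LacZ CTRL. With IL-1β it was at 15.3, 15.6, 14.1 and 25.3 CPM, all above CTRL (log2 fold change 3.05, SE 0.32, adjusted p = 0.000174). TGFβ gave 10.3 ± 3.76 CPM (2.28, SE 0.35, adjusted p = 0.000593) and bFGF 7.51 ± 2.4 CPM (1.83, SE 0.35, adjusted p = 0.00993). The bFGF call was lost without replicate 3, at an adjusted p of 0.105. With TNFα Has1 was at 2.34, 5.42, 2.4 and 3.37 CPM, and the groups overlapped (0.66, SE 0.37, adjusted p = 0.251, 0.0082 with the block).

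Has3 (chromosome 8, 106870242 to 106884566), the remaining synthase, had 586 counts in all 40 libraries together and group means between 0.17 and 0.84 CPM. No comparison of Has3 passed the threshold as fitted, with or without the block. Among the alternatives, iCre against LacZ with TNFα passed with 1 fit over all 40 libraries (adjusted p = 0.0287) and also without replicate 1, and TGFβ against CTRL in LacZ fibroblasts passed on raw library size (0.0395). At this depth only large differences could have been seen for it.

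The receptor gene Cd44 (chromosome 2, 102811141 to 102901665) rose with every ligand in LacZ fibroblasts. It was at 65.4, 81.0, 52.3 and 53.8 CPM in CTRL and at 471, 384, 384.5 and 443 CPM with IL-1β, a log2 fold change of 2.75 (SE 0.15, adjusted p = 3.23e-06). TNFα gave 270 ± 16.6 CPM (2.10, SE 0.13, adjusted p = 1.07e-05), TGFβ 208 ± 50.9 CPM (1.74, SE 0.20, adjusted p = 8.25e-05) and bFGF 197 ± 38.7 CPM (1.66, SE 0.18, adjusted p = 0.000917). None of the ligand groups overlapped CTRL.

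Tnfaip6 (chromosome 2, 52038009 to 52056686), whose product TSG-6 transfers heavy chains onto hyaluronan, was at 13.9, 12.3, 18.1 and 17.0 CPM in LacZ CTRL and at 42.8, 55.8, 52.7 and 43.3 CPM with TNFα (log2 fold change 1.67, SE 0.15, adjusted p = 6.48e-05). It rose to 43.6 ± 11.6 CPM with TGFβ (1.52, SE 0.21, adjusted p = 0.000292) and to 40.3 ± 9.28 CPM with IL-1β (1.40, SE 0.19, adjusted p = 0.000731). The change with bFGF was the smallest of the 4, to 21.9 ± 2.77 CPM (0.53, SE 0.15, adjusted p = 0.0479), and was lost without any single replicate number, at adjusted p-values of up to 0.151, with GC correction alone (0.0969) and on raw library size (0.0925).

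Vcan (chromosome 13, 89655312 to 89742509), which encodes the large hyaluronan-binding proteoglycan versican, was at 206.5, 609, 196 and 295 CPM in LacZ CTRL. Replicate 2 was the highest of these. With IL-1β Vcan was at 769, 878.5, 848 and 757 CPM (log2 fold change 1.34, SE 0.31, adjusted p = 0.0129, 0.0556 with the block and robust shrinkage) and with TGFβ at 733 ± 167 CPM (1.19, SE 0.33, adjusted p = 0.0164). The IL-1β call was lost without replicate 1, 3 or 4 (adjusted p up to 0.081) and the TGFβ call without replicate 3 or 4 (up to 0.106) and on raw library size (0.77, adjusted p = 0.115). With bFGF it was at 490 ± 128 CPM (0.61, adjusted p = 0.296, 0.000358 with the block, 0.065 with robust shrinkage) and with TNFα at 389 ± 160 CPM (0.26, adjusted p = 0.681, 0.00512 with the block, 0.184 with robust shrinkage).

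Among the breakdown genes, Hyal1 (chromosome 9, 107576927 to 107581710), a lysosomal hyaluronidase, was at 20.2, 13.8, 21.7 and 18.4 CPM in LacZ CTRL and at 7.7, 10.8, 9.46 and 8.64 CPM with TGFβ (log2 fold change −1.0, SE 0.17, adjusted p = 0.000844). It fell to 11.5 ± 1.18 CPM with IL-1β (−0.68, SE 0.15, adjusted p = 0.0103) and to 11.5 ± 1.98 CPM with TNFα (−0.69, SE 0.17, adjusted p = 0.0185). Both of these calls were lost without replicate 1, 3 or 4, at adjusted p-values of up to 0.0715 and 0.09. With bFGF Hyal1 was at 13.1 ± 1.55 CPM (−0.49, adjusted p = 0.0754, 0.00184 with the block). The 3′ part of Hyal1 overlaps Hyal3 on the same strand, which had a mean of 0.321 CPM over the 40 libraries.

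Hyal2 (chromosome 9, 107567945 to 107572779), a membrane-anchored hyaluronidase, fell with TGFβ from 32.9 ± 4.46 to 25 ± 2.28 CPM (log2 fold change −0.38, SE 0.11, adjusted p = 0.0173), a call lost without replicate 2 or 4 (adjusted p up to 0.0849). On raw library size this value was −0.79. It was at 27.3 ± 1.34 CPM with TNFα (−0.27, SE 0.09, adjusted p = 0.0722, 0.00735 with the block). With bFGF and IL-1β its log2 fold changes were −0.03 and −0.12 (adjusted p = 0.907 and 0.499).

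Cemip (chromosome 7, 83932857 to 84086502), which encodes a protein that takes part in hyaluronan breakdown, differed widely between libraries of a group. In LacZ CTRL it was at 984, 973, 456 and 345 CPM, and with bFGF at 313, 153, 89.0 and 59.0 CPM (log2 fold change −2.15, SE 0.53, adjusted p = 0.0276, 6.8e-09 with the block). The call without the block was lost without replicate 3 or 4, at adjusted p-values of up to 0.129, and with 1 fit over all 40 libraries (0.0971). With IL-1β Cemip was at 312, 444, 158 and 87.3 CPM, lower than CTRL in every replicate number although the groups overlapped (−1.44, SE 0.49, adjusted p = 0.0651, 2.21e-14 with the block). It was at 470 ± 295 CPM with TGFβ (−0.52, adjusted p = 0.437, 0.00087 with the block) and at 482 ± 277 CPM with TNFα (−0.51, adjusted p = 0.45, 0.00477 with the block, 0.311 with robust shrinkage). The TNFα value of Cemip was −0.75 without replicate 1 and −0.19 without replicate 2.

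**Figure D2:**
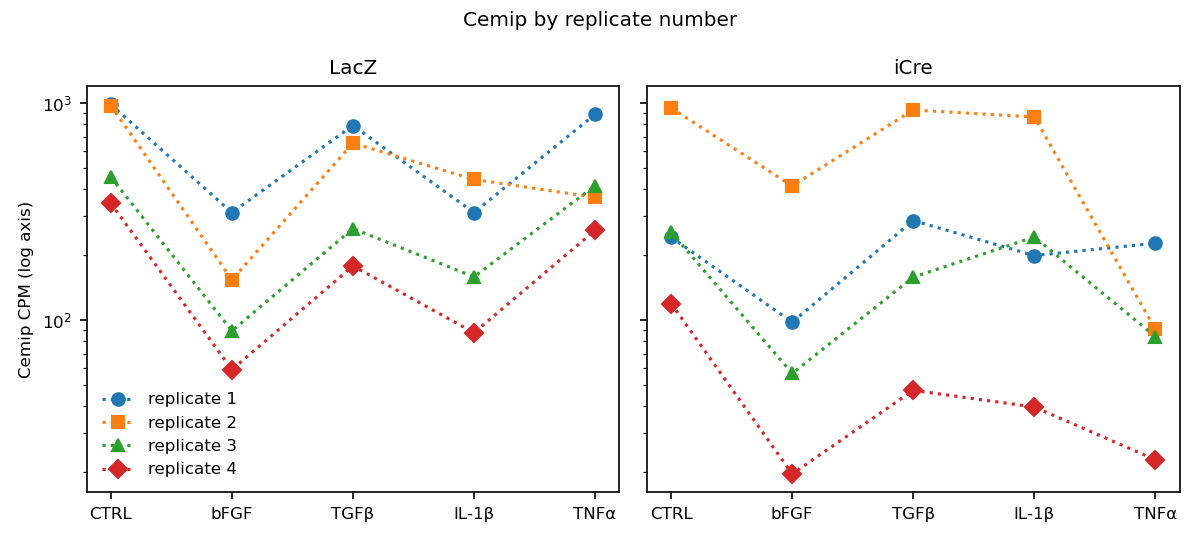
Cemip CPM (log axis) by ligand in LacZ (left) and iCre (right) fibroblasts; each marker and dotted line is a replicate number. Replicate 4 was the lowest in all 10 groups, and in iCre fibroblasts replicate 2 was at 947 CPM in CTRL and 90.6 CPM with TNFα.

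In LacZ fibroblasts IL-1β and TNFα, which both signal through TAK1, gave different levels of 4 members. Levels with IL-1β were higher than with TNFα for Has1 (log2 fold change 2.38, SE 0.29, adjusted p = 0.000616), Has2 (1.61, SE 0.16, adjusted p = 0.000203), Cd44 (0.64, SE 0.10, adjusted p = 0.00262) and Vcan (1.07, SE 0.23, adjusted p = 0.0164, 0.0565 with the block and robust shrinkage), beside 9.62% of all genes called. Cemip was at 251 ± 160 against 482 ± 277 CPM (−0.94, adjusted p = 0.317, 1.1e-05 with the block, 0.253 with robust shrinkage, −1.49 without replicate 2 and −0.59 without replicate 1), and 5 members passed with the block (24.2% of all genes). The Vcan call was lost without replicate 3 or 4 (adjusted p up to 0.144). In iCre fibroblasts only Vcan passed, at 324 ± 63.1 CPM with TNFα and 648 ± 56.9 CPM with IL-1β (0.99, SE 0.16, adjusted p = 0.0118, 2.65% of all genes called), and it was lost without replicate 3 (0.148). With the block 4 members passed (17.1% of all genes), the others being Has2 (0.70, adjusted p = 0.179, 0.00884 with the block, 0.144 with robust shrinkage), Hyal2 (−0.26, adjusted p = 0.249, 0.0422 with the block) and Cemip (1.64, adjusted p = 0.373, 0.028 with the block, 0.429 with robust shrinkage, 2.53 without replicate 1 and 0.52 without replicate 2).

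In iCre fibroblasts Has1 rose with TNFα as well as with IL-1β. Has1 was at 3.83, 5.48, 2.91 and 8.06 CPM in iCre CTRL, at 58.1, 36.1, 35.1 and 99.6 CPM with IL-1β (log2 fold change 3.52, SE 0.42, adjusted p = 0.000736) and at 36.4, 41.5, 58.6 and 72.1 CPM with TNFα (3.40, SE 0.34, adjusted p = 0.000227). No library of either ligand overlapped CTRL. With TGFβ it was at 11.2 ± 4.34 CPM (1.17, SE 0.34, adjusted p = 0.0204), a call lost without replicate 1 or 3 (up to 0.0778) and on raw library size (0.72, adjusted p = 0.123), and with bFGF at 16.8 ± 12.1 CPM (1.74, adjusted p = 0.119, 0.000538 with the block, 0.197 with robust shrinkage).

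Over the 9 genes in iCre fibroblasts, 1 member, Cd44, passed with bFGF (2.42% of all genes) and 6 passed with TGFβ, of which 4 were higher (37.4%). IL-1β gave 4 members past the threshold (16.3%) and TNFα also 4 (27.0%), all higher. Over the 4 ligands 13 member values were higher and 2 lower, and 9 and 5 on raw library size. With the block, 5, 6, 8 and 8 members passed (16.7%, 41.5%, 33.8% and 36.1% of all genes). Has2 rose with TGFβ to 46.9 ± 12.3 CPM from 11.2 ± 4.31 CPM (log2 fold change 2.08, SE 0.28, adjusted p = 0.00019) and with IL-1β to 27.3 ± 9.73 CPM (1.30, SE 0.32, adjusted p = 0.0215, up to 0.12 without replicate 1 or 3). It was at 21.4 ± 8.12 CPM with bFGF (0.94, adjusted p = 0.192, 4.1e-06 with the block) and at 16.7 ± 1.36 CPM with TNFα (0.61, adjusted p = 0.101, 0.0112 with the block). GC correction gave 1.0 (0.0182) for Has2 with TNFα, and 1.08 (0.000808) with the block.

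Cd44 rose with all 4 ligands in iCre fibroblasts, from 105 ± 13.2 CPM to 322 ± 62.4 CPM with TNFα (log2 fold change 1.66, SE 0.16, adjusted p = 0.000203), 263 ± 38.0 CPM with IL-1β (1.35, SE 0.13, adjusted p = 0.000256), 229 ± 53.8 CPM with bFGF (1.14, SE 0.18, adjusted p = 0.0201) and 184 ± 52.2 CPM with TGFβ (0.83, SE 0.19, adjusted p = 0.00547). The bFGF call was lost without replicate 1, 3 or 4 (up to 0.197) and the TGFβ call on raw library size (0.38, adjusted p = 0.139). Tnfaip6 rose from 12.9 ± 1.87 CPM to 26.0 ± 11.1 CPM with TGFβ (1.03, SE 0.27, adjusted p = 0.0119, 0.58 and 0.105 on raw library size), 22.9 ± 4.37 CPM with IL-1β (0.85, SE 0.16, adjusted p = 0.00655) and 20.2 ± 2.89 CPM with TNFα (0.68, SE 0.15, adjusted p = 0.00698, 1.03 with GC correction and block). With bFGF it was at 14.7 ± 1.95 CPM (0.20, adjusted p = 0.524).

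Hyal1 fell with TGFβ in iCre fibroblasts, from 18 ± 2.99 to 11.2 ± 1.46 CPM (log2 fold change −0.67, SE 0.15, adjusted p = 0.00445, −1.11 on raw library size). With bFGF, IL-1β and TNFα its adjusted p-values were 0.183, 0.0847 and 0.0837, and 0.0107, 3.64e-05 and 0.00259 with the block. GC correction alone gave 0.0274 with IL-1β and 0.0287 with TNFα. Hyal2 fell with TGFβ from 42.1 ± 6.96 to 32.4 ± 2.06 CPM (−0.35, SE 0.12, adjusted p = 0.0346, −0.8 on raw library size, −0.47 to −0.22 without a replicate number, up to 0.149 without replicate 1, 2 or 3) and rose with TNFα to 57.4 ± 7.72 CPM (0.48, SE 0.14, adjusted p = 0.0245, up to 0.156 without replicate 3 or 4). The rise of Hyal2 with TNFα was lost with GC correction alone (0.32, adjusted p = 0.136) and on raw library size (0.0991), and passed with GC correction and block (0.33, 0.0215). Cemip with TNFα was at 226, 90.6, 83.9 and 22.7 CPM against 241, 947, 254 and 119 CPM in CTRL (−1.85, SE 0.74, adjusted p = 0.0948, 0.00747 with the block, 0.169 with robust shrinkage). It passed without replicate 1 (−2.7, adjusted p = 0.0413) and was −0.84 without replicate 2. Vcan with TNFα was at 324 ± 63.1 CPM against 502 ± 139 CPM (−0.60, SE 0.21, adjusted p = 0.0634, 0.0351 with the block, 0.219 with robust shrinkage, 0.119 with GC correction and block). With TGFβ, GC correction and block gave −0.53 for Cemip (adjusted p = 0.0464) and 0.48 for Vcan (0.0258), against −0.12 (0.951) and 0.22 (0.385) with neither. Cemip with bFGF (−1.40, adjusted p = 0.469) had 1.47e-06 with the block and 0.0593 with robust shrinkage. With IL-1β the block gave adjusted p-values of 2.21e-06 for Cemip (−0.20), 1.48e-06 for Vcan (0.39) and 0.0117 for Hyal2 (0.21), against 0.917, 0.192 and 0.252 without it. Robust shrinkage gave 0.443 for Cemip and 0.0659 for Vcan, and GC correction with the block gave 0.932 for Hyal2.

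**Figure D3:**
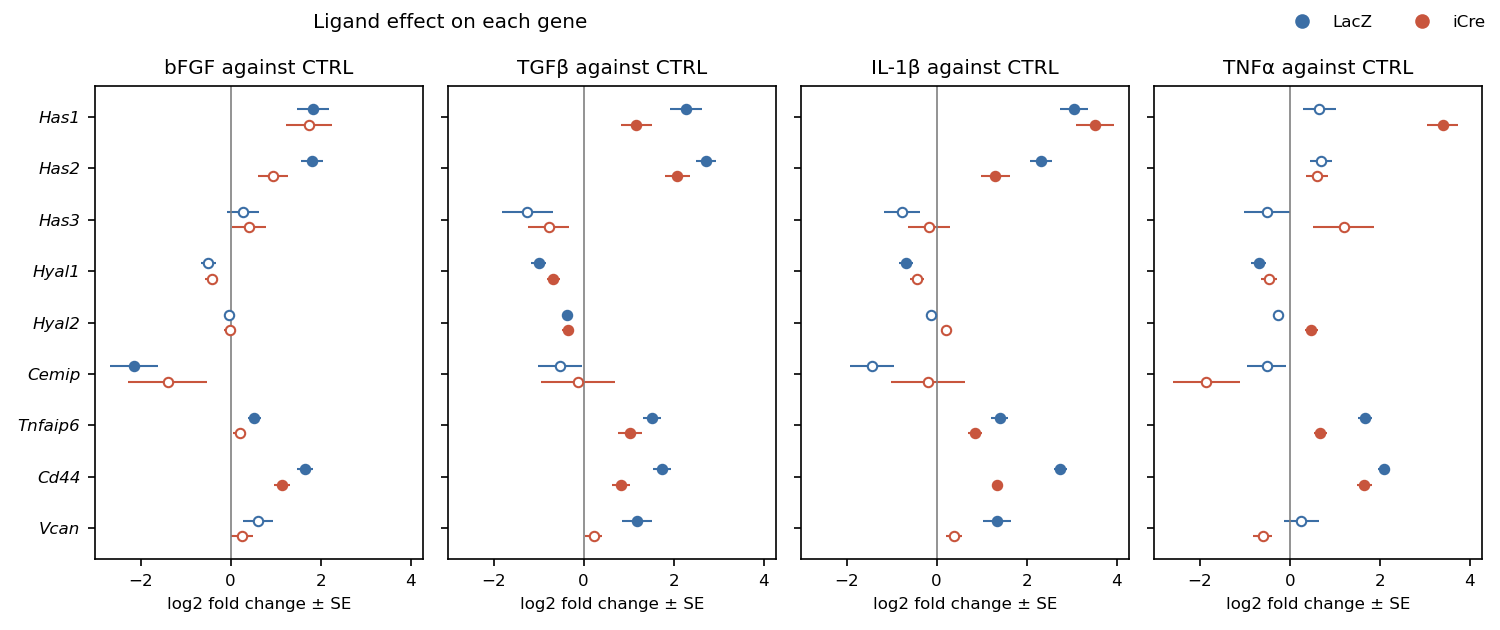
Log2 fold change of each ligand against CTRL for the 9 genes (horizontal axis, ± SE), in LacZ (blue) and iCre (red) fibroblasts; filled points passed an adjusted p of 0.05 without the block. With TNFα the Has1 point lies at 0.66 in LacZ and at 3.40 in iCre fibroblasts.

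Direct comparison of iCre with LacZ fibroblasts addressed the role of TAK1 at each condition. No member passed without a ligand (0.0754% of all genes called), with bFGF (0.0%) or with TGFβ (8.37%), and 4 passed with IL-1β (16.1%) and 4 with TNFα (27.3%), 2 higher and 2 lower in each. Where edgeR called none, 3, 3 and 4 members had an unadjusted p of at most 0.05, beside 3538, 2585 and 5333 of all 25210 genes. DESeq2 called 2, 1 and 1 members there, beside 1346, 481 and 3788 of all genes. With the block, 5, 5, 5, 6 and 4 members passed over the 5 conditions (14.5%, 13.9%, 20.8%, 29.5% and 32.2% of all genes). Interactions, the test of whether a ligand effect differs between the viruses, passed for no member with bFGF (0.0% of all genes) or TGFβ (4.51%), for 1 with IL-1β (7.71%) and for 3 with TNFα (16.1%). For bFGF and TGFβ, 0 and 3 members had an unadjusted p of at most 0.05, beside 765 and 3839 of all genes. DESeq2 called 0 and 1 members there, beside 0 and 2187 of all genes. With the block 0, 3, 5 and 3 interactions passed (0.0%, 8.04%, 16.9% and 25.1% of all genes).

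With TNFα, Has1 was 15.65-fold higher in iCre than in LacZ fibroblasts, at 52.1 ± 16.3 against 3.38 ± 1.44 CPM (log2 fold change 3.97, SE 0.32, adjusted p = 6.87e-05, 4.0 with GC correction and block). The effect of TNFα on Has1 differed between the viruses by 2.73 on the log2 scale (SE 0.53, adjusted p = 0.0021, 2.76 with GC correction and block), and was larger in iCre fibroblasts in all 4 replicate numbers. With IL-1β Has1 was at 57.2 ± 30.2 against 17.6 ± 5.17 CPM (1.69, SE 0.33, adjusted p = 0.00657, 1.59 with GC correction and block). The effect of IL-1β itself did not differ past the threshold (0.46, SE 0.54, adjusted p = 0.712). In CTRL Has1 was at 5.07 ± 2.26 against 2.15 ± 0.89 CPM, higher in iCre in all 4 replicate numbers although the groups overlapped (1.23, SE 0.39, adjusted p = 0.203, 0.000283 with the block). With bFGF the difference was 1.16 (adjusted p = 0.458, 0.00216 with the block, 0.352 with robust shrinkage), and the interaction of TGFβ and virus was −1.13 (adjusted p = 0.319, 0.0449 with the block, 0.0733 with robust shrinkage, 0.0719 with GC correction and block). Mesothelial cells are known to make hyaluronan, and the sum of 5 mesothelial markers was 2.39 to 5.02 CPM in iCre with TNFα and 2.91 to 4.93 CPM in LacZ with TNFα. With IL-1β it was higher in iCre without overlap, at 2.83 to 7.47 against 1.9 to 2.62 CPM, as was the cardiomyocyte sum, at 2.05 to 16.9 against 0.303 to 1.66 CPM. The sum of the 4 mural markers was 292 to 1120 and 63.3 to 357 CPM in iCre and LacZ with TNFα. The part of these sums in the results was not tested.

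Tnfaip6 was lower in iCre fibroblasts with TNFα, at 24.0, 17.2, 19.2 and 20.3 CPM against 42.8, 55.8, 52.7 and 43.3 CPM (log2 fold change −1.25, SE 0.13, adjusted p = 0.00024, −0.80 and 0.00199 with GC correction and block). The effect of TNFα on it was smaller in iCre fibroblasts, with an interaction of −1.0 (SE 0.21, adjusted p = 0.00387, −0.62 and 0.0248 with GC correction and block). With GC correction alone the interaction was −0.60 and did not pass (adjusted p = 0.0763). With IL-1β Tnfaip6 was at 22.9 ± 4.37 against 40.3 ± 9.28 CPM (−0.83, SE 0.19, adjusted p = 0.0133, −0.39 and 0.00153 with GC correction and block), a call lost without replicate 3 (0.0915) and with GC correction alone (−0.40, adjusted p = 0.255). The differences with bFGF (−0.57, adjusted p = 0.281) and TGFβ (−0.77, adjusted p = 0.163) passed with the block, at 0.000916 and 2.41e-05, and that with TGFβ was −0.38 (0.0181) with GC correction and block. Tnfaip6 has a GC content of 41.1%, and the part of GC content in these differences was not tested.

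Hyal2 was higher in iCre fibroblasts with TNFα, at 47.0, 63.5, 63.0 and 56.2 CPM against 27.9, 28.8, 25.9 and 26.4 CPM (log2 fold change 1.09, SE 0.11, adjusted p = 0.000169, 0.89 with GC correction and block). Its response to TNFα differed between the viruses by 0.74 (SE 0.17, adjusted p = 0.00738, 0.56 with GC correction and block), a call lost without replicate 3 or 4 (up to 0.0958). With IL-1β it was at 48.1 ± 3.26 against 30.0 ± 3.59 CPM (0.67, SE 0.10, adjusted p = 0.00123, 0.46 with GC correction and block). In CTRL, bFGF and TGFβ the differences of 0.34, 0.38 and 0.35 (adjusted p = 0.274, 0.406 and 0.0516) passed with the block (0.00457, 0.00187 and 0.00709), and that with TGFβ was 0.11 with GC correction and block (0.689).

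Cd44 with IL-1β was at 253, 232, 249 and 318 CPM in iCre against 471, 384, 384.5 and 443 CPM in LacZ fibroblasts (log2 fold change −0.69, SE 0.13, adjusted p = 0.00484, −0.51 and 0.000135 with GC correction and block). In CTRL the order was the opposite, with all 4 iCre libraries above all 4 LacZ libraries (0.72, SE 0.15, adjusted p = 0.0862, 4.1e-05 with the block). The effect of IL-1β on Cd44 was smaller in iCre fibroblasts, with an interaction of −1.41 (SE 0.20, adjusted p = 0.000312, −1.26 with GC correction and block). With TNFα Cd44 was at 322 ± 62.4 against 270 ± 16.6 CPM (0.27, adjusted p = 0.191, 0.46 and 0.0304 with GC correction and block), and with bFGF at 229 ± 53.8 against 197 ± 38.7 CPM (0.21, adjusted p = 0.691, 0.26 and 0.0336 with GC correction and block). The interaction with TGFβ was −0.93 (SE 0.30, adjusted p = 0.0985, 0.0499 with the block, 0.172 with robust shrinkage, 0.174 with GC correction and block).

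Cemip with TNFα was lower in iCre fibroblasts, at 226, 90.6, 83.9 and 22.7 CPM against 886, 368, 415 and 259 CPM (log2 fold change −2.16, SE 0.62, adjusted p = 0.0259, −2.53 with GC correction and block). All iCre libraries lay below all LacZ libraries, and the call was lost without replicate 3 (0.121) and with 1 fit over all 40 libraries (0.06). The interaction for Cemip with TNFα was −1.35 (SE 0.93, adjusted p = 0.384), −1.97 without replicate 1 and −0.70 without replicate 2, so its response to TNFα was not shown to differ between the viruses. In CTRL and with TGFβ the differences of −0.83 and −0.43 (adjusted p = 0.555 and 0.817) passed with the block (0.00142 and 0.00646) and not with robust shrinkage (0.274 and 0.427), and were −1.13 and −1.08 with GC correction and block. The CTRL difference was −0.41 without replicate 1 and −1.55 without replicate 2. Vcan was at 502 ± 139 CPM in iCre and 327 ± 193 CPM in LacZ CTRL (0.62, adjusted p = 0.455, 0.000146 with the block, 0.0695 with robust shrinkage). With IL-1β it was at 648 ± 56.9 and 813 ± 59.4 CPM, and the groups did not overlap (−0.34, adjusted p = 0.0594, 0.00391 with the block, 0.502 with GC correction and block). For Vcan with bFGF (0.28) and TGFβ (−0.38) the adjusted p was 0.691 and 0.209, and 0.0217 and 0.0391 with the block, and the TGFβ call was ended by robust shrinkage (0.365) and by GC correction with the block (−0.10, 0.791). The interaction of TGFβ and virus for Vcan was −1.0 (adjusted p = 0.233, 0.0482 with the block, 0.17 with robust shrinkage, 0.185 with GC correction and block).

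Has2 with IL-1β was at 26.6, 15.2, 28.2 and 39.0 CPM in iCre and 51.5, 33.8, 48.6 and 50.3 CPM in LacZ fibroblasts (log2 fold change −0.77, SE 0.25, adjusted p = 0.0612, 5.46e-06 with the block). With GC correction and block the difference was −0.35 (adjusted p = 0.0189), and with GC correction alone −0.30 (0.54). With TGFβ the Has2 difference was −0.40 (adjusted p = 0.231, 0.00264 with the block) and 0.07 with GC correction and block (0.86). With bFGF it was −0.59 (adjusted p = 0.496, 0.00107 with the block, 0.201 with robust shrinkage). With TNFα it was 0.17 (adjusted p = 0.415), and 0.68 with GC correction and block (0.00129). Interactions of IL-1β with the virus for Has2, Hyal2, Tnfaip6 and Vcan passed with the block alone (adjusted p = 0.00773, 0.0369, 0.015 and 0.0115) and not with GC correction and block (0.141, 0.455, 0.515 and 0.0603). Robust shrinkage ended those of Has2 (0.0587) and Vcan (0.0867).

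**Figure D4:**
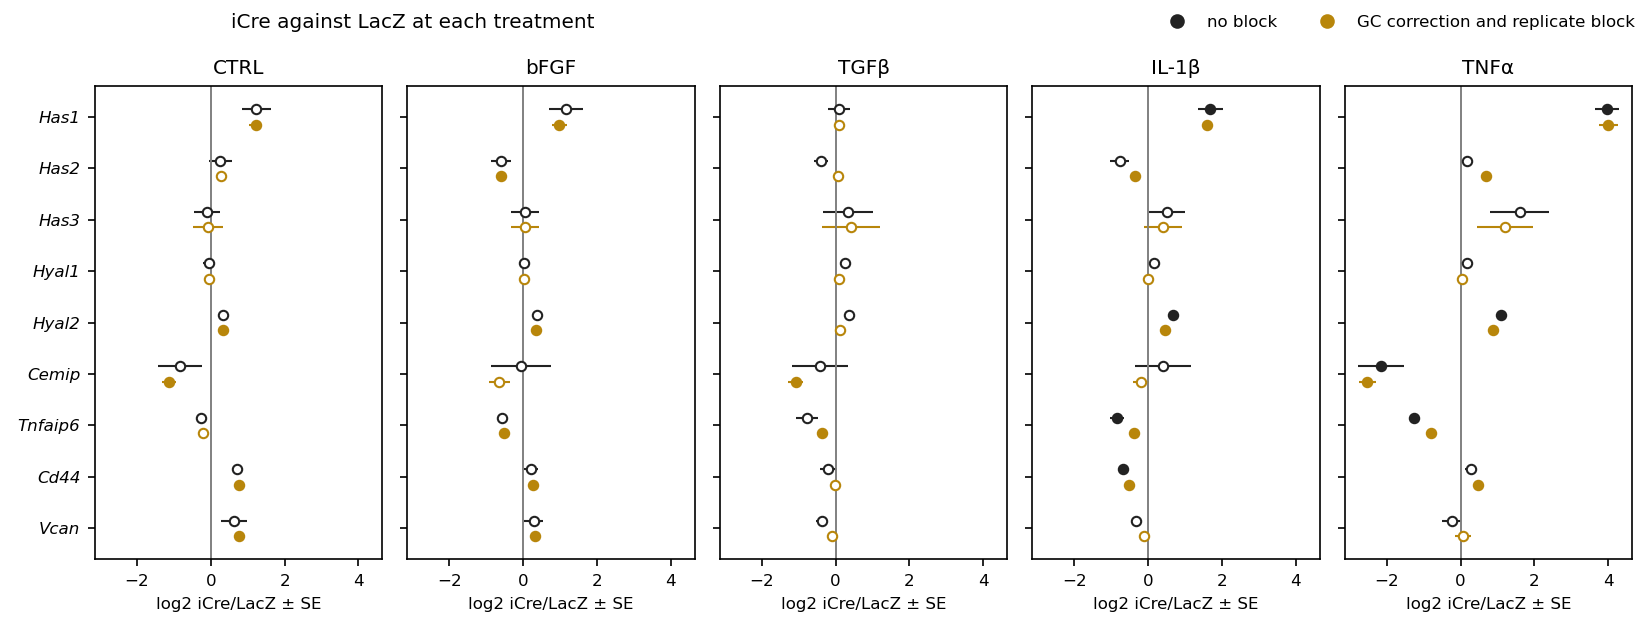
Log2 ratio of iCre to LacZ (horizontal axis, ± SE) for the 9 genes at each condition, without the block (black) and with GC correction and replicate block (gold); filled points passed an adjusted p of 0.05. With TNFα, Has1 and Hyal2 lie to the right of 0 and Cemip and Tnfaip6 to the left under both.

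The synthase transcripts can be set beside each other per kb of merged exons. In LacZ fibroblasts Has2 made up 80.2% of the summed synthase CPM per kb in CTRL, and Has1 17.3 ± 4.27%. With IL-1β the Has1 share was 26.3 ± 5.51% in LacZ and 64.9 ± 7.61% in iCre fibroblasts, and with TNFα 17.0 ± 5.79% and 73.0 ± 4.83%. With bFGF the share was 17.6 ± 3.27% in LacZ and 38.9 ± 8.69% in iCre fibroblasts, and in CTRL it was 29.7 ± 10.7% in iCre fibroblasts. The libraries of the viruses did not overlap in this share with IL-1β, TNFα or bFGF, and overlapped in CTRL and with TGFβ. With TGFβ it was 13.5 ± 3.11% and 17.9 ± 2.07%. The summed level with TNFα was 4.36 ± 0.699 CPM per kb in LacZ and 15.6 ± 3.89 CPM per kb in iCre fibroblasts, without overlap. In the other conditions the viruses overlapped in this sum, at 2.73 and 3.83 in CTRL, 9.35 and 8.87 with bFGF, 16.6 and 13.6 with TGFβ, and 14.8 ± 2.51 and 19.1 ± 8.7 CPM per kb with IL-1β. By the longest transcript the Has1 shares in iCre were 70.2% with IL-1β and 77.5% with TNFα. These shares are a description and were not tested.

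**Figure D5:**
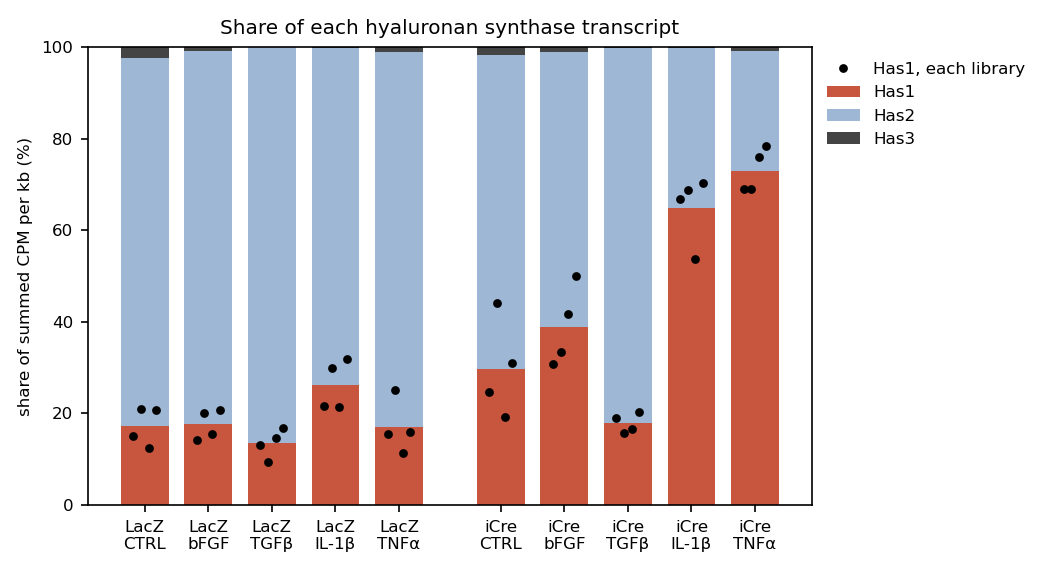
Mean share of Has1, Has2 and Has3 in their summed CPM per kb (vertical axis, percent) in the 10 groups; dots are the Has1 share in each library. In the iCre libraries given IL-1β or TNFα the Has1 share spans 53.7% to 78.4%, and over all LacZ libraries 9.43% to 31.9%.

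Other genes of the pathway were counted from lists of 46 genes, of which 42 were tested. In LacZ fibroblasts, the 9 genes listed under synthesis and precursors had 6 higher and none lower with bFGF, and 6 and none with TGFβ. With IL-1β 7 were higher and none lower, and with TNFα 3 higher and 2 lower. With the block these counts were 8 and 0, 7 and 0, 7 and 0, and 5 and 2. Of the 42 genes, bFGF gave 12 higher and 5 lower, TGFβ 12 and 17, IL-1β 17 and 4, and TNFα 10 and 7. Beside them 11.6%, 36.9%, 20.7% and 21.3% of all genes were called in either direction. With the block the 42 genes gave 17 and 11, 13 and 19, 21 and 7, and 16 and 11. The shares of all genes were then 27.3%, 42.0%, 33.5% and 35.5%. With TGFβ, 5 of 7 receptor genes were lower (36.9% of all genes called in either direction), and 6 with the block (42.0%). Of 6 genes tested from the breakdown list, 1 was higher and 2 lower with bFGF, and 1 and 4 with TGFβ. With IL-1β 2 were higher and none lower, and with TNFα 1 and 1. With the block these counts were 1 and 3, 1 and 4, 2 and 1, and 1 and 2. Cemip2, a paralog of Cemip, was among those higher with bFGF, at 81.8 ± 23.3 CPM against 23.7 ± 0.888 CPM (1.81, SE 0.18, adjusted p = 0.000636). These lists were broad, were not limited to steps particular to hyaluronan, and were counted on TMM library sizes only.

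Acan, which encodes the hyaluronan-binding proteoglycan aggrecan, was at 67.7 ± 52.4 CPM with TGFβ against 0.0873 ± 0.0308 CPM in LacZ CTRL. It was named for the size of this change, and its level in CTRL was close to 0, so no fold is given. Ptx3, whose product binds TSG-6 in hyaluronan matrix, was at 1330 ± 487 CPM with TNFα in LacZ and 48.4 ± 41.8 CPM in iCre fibroblasts (−4.75, SE 0.66, adjusted p = 0.000791). Tlr2, a receptor that hyaluronan fragments can engage, was at 315 ± 45.7 and 22.4 ± 13.7 CPM in the same groups (−3.79, SE 0.39, adjusted p = 0.000204). Comparing iCre with LacZ with TNFα, 5 of the 42 genes were higher and 12 lower, beside 27.3% of all genes called in either direction. Among those lower were 4 of the 6 versican proteases. With the block 9 were higher and 14 lower (32.2% of all genes), with 1 versican protease higher and 4 lower.

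Across the 10 group means of log2 CPM, the gene most like Has1 among 13090 was Mtf1 (Pearson r = 0.938), the gene most like Has2 was Olr1 (0.966), and the gene most like Cd44 was Rai14 (0.951). Hyal2 was most like Mapk13 (0.982) and Tnfaip6 most like Gm8188 (0.954). These values describe 10 points that share libraries and GC trends. In the order of group means, neighbouring groups overlapped for all 9 genes except in 1 of 9 steps for Has1 and 3 of 9 for Cd44.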

How the data were processed

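RNA-seq libraries of 40 samples were analysed, with groups taken from the labels. Raw counts of reads per Ensembl gene were deposited by the authors. Single-end reads were aligned to mm10 with STAR and counted with HTSeq 0.10.0 after FastQC 0.10.1, and the strand setting and annotation release are not given in the sources used here. The paper names a TruSeq Stranded kit and the labels a NEBNext Ultra II kit. GENCODE M21 held 52133 of 55414 identifiers and 99.59% of the counts, and gave positions, lengths and GC content.

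Genes with at least 10 counts over the 40 libraries were kept (25210). Groups were compared with edgeR 4.0.16 in R 4.3.3 (TMM on the libraries compared, quasi-likelihood test, Benjamini-Hochberg adjustment over all genes, threshold 0.05), and interactions over 4 groups. A standard error is the log2 fold change divided by the square root of F. Alternatives were DESeq2 1.42.0, RLE factors, raw library size, filterByExpr, no filter, leaving out each replicate number, the replicate block, 1 fit over all libraries, only protein-coding genes, and GC correction alone or with the block. The block with robust shrinkage was added after seeing the data. Replicate 1 has library numbers 31 to 40 and the others 51 to 80, so leaving out replicate 1 also gives the values within the later numbers.

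Deviations from group means over 13090 genes correlated by 0.546 on average between libraries with the same replicate number (180 pairs, 179 over 0.1) and by −0.155 otherwise, and the lowest same-number correlation in a comparison was 0.286; this pairing comes from the data and the shared numbers, since the labels do not name a shared animal. The tests were checked on simulated data, in which DESeq2 and the blocked test made more false calls than their threshold allows. For the blocked test this held whether the simulated spread came from a fit with or without the block, and also with robust shrinkage, so its adjusted p-values are too small. The study describes the replicates as biological, and the reads carry no molecular identifiers. The members, lists and named genes were chosen with earlier results of these data known. The other genes of the pathway that may be named were the 3 with the largest change past the threshold at a mean of at least 1 CPM per comparison, and Acan, Ptx3, Tlr2 and Cemip2 were taken from these after their values were seen. Python 3.11.15, pandas 2.3.3, numpy 2.4.6 and matplotlib 3.10.9 were used for tables and figures.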

Additional observations from a re-analysis of the deposited data

Results flagged for a closer look

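The effect of a ligand differed between LacZ and iCre fibroblasts, by the interaction test of edgeR, in 4 cases. The interaction was 2.73 for Has1 with TNFα (SE 0.53, adjusted p = 0.0021), 0.74 for Hyal2 with TNFα (SE 0.17, adjusted p = 0.00738), −1.0 for Tnfaip6 with TNFα (SE 0.21, adjusted p = 0.00387) and −1.41 for Cd44 with IL-1β (SE 0.20, adjusted p = 0.000312). That of Hyal2 was lost without replicate 3 or 4 (adjusted p up to 0.0958) and was at 0.0493 with GC correction alone. That of Tnfaip6 was lost with GC correction alone (−0.60, adjusted p = 0.0763). A single library lay far from the other 3 of its group in 6 of 90 groups, and chance gives about 1 in 20. These were Has1 in LacZ with IL-1β, replicate 4 (25.3 CPM), Has2 in LacZ with IL-1β, replicate 2 (33.8 CPM), Has3 in LacZ with IL-1β, replicate 2 (0.326 CPM), Has3 in iCre with TNFα, replicate 2 (2.26 CPM), Cemip in iCre CTRL, replicate 2 (947 CPM) and Tnfaip6 in iCre CTRL, replicate 2 (10.1 CPM). Replicate 2 holds 5 of the 6.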

How the results depend on the processing

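Counts of member values past the threshold depended most on the replicate block. Brackets after a count give the lowest and highest number of all genes called per comparison, of 25210 tested or 24970 with GC correction. For ligands in LacZ fibroblasts 21 of 36 values passed (2934 to 9297), against 30 with the block (6880 to 10595). GC correction and block gave 30 (6819 to 10623) and the block with robust shrinkage 26 (6706 to 10551). DESeq2 gave 24 (4672 to 10219), and leaving out a replicate number 14 to 22 (332 to 9354). In iCre fibroblasts 15 of 36 passed (610 to 9438), against 27 with the block (4207 to 10453). GC correction and block gave 27 (4122 to 10295) and the block with robust shrinkage 21 (3707 to 10354). DESeq2 gave 19 (1998 to 10318), and leaving out a replicate number 10 to 20 (0 to 10087). For iCre against LacZ 8 of 45 passed (0 to 6894), against 25 with the block (3492 to 8121). GC correction and block gave 24 (2399 to 7121) and the block with robust shrinkage 19 (3001 to 7939). DESeq2 gave 14 (481 to 8032), and leaving out a replicate number 6 to 12 (0 to 6837). For interactions 4 of 36 passed (0 to 4054), against 11 with the block (0 to 6333). The block with robust shrinkage gave 6 (0 to 6208) and GC correction and block 4 (0 to 5325). Leaving out a replicate number gave 3 to 7 (0 to 3888), with 7 without replicate 2. For IL-1β against TNFα 5 of 18 passed (669 to 2426), against 9 with the block (4303 to 6107). GC correction and block gave 9 (4518 to 6137) and the block with robust shrinkage 5 (4100 to 5983). Leaving out a replicate number gave 3 to 6 (8 to 3197), with 3 without replicate 3. With GC correction alone 20, 17, 9, 3 and 5 values passed in the same order. Over all genes it called 2839 to 9066, 548 to 9208, 0 to 5704, 0 to 3043 and 667 to 2410. The interaction of Tnfaip6 with TNFα was among the member values lost (adjusted p = 0.0763). The difference of Has2 between iCre and LacZ with TGFβ turned from −0.40 to 0.09 with GC correction and to 0.07 with GC correction and block, and that of Cemip lay between −1.38 and 0.03 when a replicate number was left out; the cause was not tested. Over all genes, bFGF in iCre fibroblasts gave 610 calls without and 4207 with the block. Of 90 group levels, 6 moved by more than the SD on raw library size, and 27 levels per kb did by the longest transcript. Depth limits Has3, with 586 counts in all.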
